A study of Arabidopsis thaliana with 8 samples.

Results

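The enzymes that build the 2 lipid barriers of the *Arabidopsis* seedling were followed through 8 whole-seedling transcriptomes. Of the 27207 genes measured, 9 were chosen by name, with earlier results of these data known: *CER1*, *CER3*, *KCS6* and *WSD1*, which act in the cuticular wax of the shoot, and *KCS2*, *GPAT5*, *CYP86A1*, *CYP86B1* and *ASFT*, which act in the suberin of the root. The question was how the transcripts of these 4 wax and 5 suberin genes stood in WT and *idd4* seedlings with and without salt. All plants were in the Col-0 background and were harvested as seedlings aged 14 days, after 5 days on half-strength MS medium and a transfer to fresh medium either without NaCl (mock) or with 100 mM NaCl. The 4 groups are WT mock, *idd4* mock, WT NaCl and *idd4* NaCl, with 2 biological replicates each. The *idd4* line carries a T-DNA insertion in the open reading frame of *IDD4*, and a single line represents the genotype.

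Cuticular wax covers the epidermis of leaves and stems and limits the loss of water. Its very-long-chain fatty acids are made by an elongase in the endoplasmic reticulum and are then turned into alkanes or into alcohols and wax esters. Suberin is a polyester of fatty acids, glycerol and ferulate that is deposited in the endodermis and outer layers of the root, where it restricts the free passage of water and ions such as sodium.

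Depth ranged from 5882615 fragments in the first *idd4* NaCl library to 13557480 in the second. The deposited value of a gene, called scaled fragments here, is a count of sequenced fragments put on a common scale by a factor specific to each library. It is not divided by gene length, so levels of different genes are compared only after that division. With these factors the median of 21820 tested genes lay 0.25 higher under NaCl than in mock on the log2 scale in WT and 0.249 higher in *idd4*. Differences of the members under NaCl are therefore also given relative to that median gene, below for *CER1*, *CER3* and *CYP86A1*. For the rest they were, in WT and *idd4*, -0.207 and 0.184 (*KCS6*), 1.02 and 0.523 (*WSD1*) and -0.832 and -0.646 (*ASFT*). They were -0.515 and -0.661 (*CYP86B1*), -0.473 and -0.237 (*GPAT5*) and -0.498 and -0.572 (*KCS2*). *IDD4* itself had 274 and 360.1 scaled fragments in WT mock and 414 and 428 in WT NaCl, against 477 and 436 in *idd4* mock and 603 and 527 in *idd4* NaCl. It stood higher in the libraries labelled *idd4* at each treatment, and a value per gene does not show whether the transcript was intact, so the genotypes below are those of the labels. Genes of the root (15 markers of endodermis, root hair and stele) summed to between 2583 and 3024 scaled fragments over the 4 mock libraries and between 2219 and 2614 over the 4 NaCl libraries. Of these root markers *CASP5* was at 0 in 1 library, the second WT mock, and the others were detected in all 8. The 4 shoot epidermis markers summed to between 5006 and 6083 in mock and between 4578 and 6225 under NaCl. Of these 4, 3 had a negative NaCl difference in each genotype, against 28.5% of all genes tested in WT and 29.6% in *idd4*. *ATML1* had 543 to 601 scaled fragments in mock and 339 to 483 under NaCl, with no overlap. The 9 leaf photosynthesis markers summed to between 659200 and 893000 in mock and between 300200 and 524000 under NaCl, with no overlap. With all NaCl libraries set against all mock libraries, limma called 0 markers higher, against 12.1% of tested genes. Lower, against 3.8%, were *COBL9* (root), *ATML1* and, of the leaf, *LHCA1*, *PSAD1*, *RBCS3B* and *RCA*. After quantile normalization 0 leaf markers were called. Of the root markers edgeR called *CASP1*, *CASP2*, *COBL9* and *EXPA7* lower, and DESeq2 added *TIP2-3*. In either direction edgeR called 11.9% of tested genes and DESeq2 12.7%. The 15 root markers did not share a direction: 7 had a positive and 8 a negative NaCl difference in WT. In *idd4*, and over both genotypes, 8 were positive and 7 negative. The part of the marked cell types in the results below was not tested. In whole seedlings fewer cells of a type and less RNA per cell cannot be told apart.

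The sequence just upstream of a gene is shown for 4 members, as 250 bases that end at the base before its annotated start in the TAIR10.1 assembly of RefSeq, read 5′ to 3′ on the strand of the gene. *CER1* and *CYP86A1* are shown because limma on the deposited values called them higher under NaCl over both genotypes, a result that depended on the scaling. *KCS6* and *ASFT* are shown for the repeated motifs that they hold. Capitals mark matches on either strand to any of 4 motifs: ACGTG, the core of the abscisic acid response element; TAAATGNA, the L1 box of epidermal genes with its variable base written N; ACCNAAC, the AC element bound by MYB factors; and AGACAA, the core of the motif bound by INDETERMINATE DOMAIN factors. The stretches lie at chr1:418166-418415 (plus strand, *CER1*), chr1:25715025-25715274 (minus strand, *KCS6*), chr5:23768112-23768361 (minus strand, *CYP86A1*) and chr5:16431054-16431303 (plus strand, *ASFT*).
CER1: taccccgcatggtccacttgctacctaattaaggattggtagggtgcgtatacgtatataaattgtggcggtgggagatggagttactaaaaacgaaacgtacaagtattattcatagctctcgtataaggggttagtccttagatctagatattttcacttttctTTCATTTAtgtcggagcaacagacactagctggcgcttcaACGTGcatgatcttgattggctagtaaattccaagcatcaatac
KCS6: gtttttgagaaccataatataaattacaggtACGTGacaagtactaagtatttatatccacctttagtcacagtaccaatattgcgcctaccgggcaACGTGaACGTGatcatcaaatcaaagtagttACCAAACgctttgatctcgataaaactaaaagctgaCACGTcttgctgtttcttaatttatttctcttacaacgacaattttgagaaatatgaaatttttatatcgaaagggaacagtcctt
CYP86A1: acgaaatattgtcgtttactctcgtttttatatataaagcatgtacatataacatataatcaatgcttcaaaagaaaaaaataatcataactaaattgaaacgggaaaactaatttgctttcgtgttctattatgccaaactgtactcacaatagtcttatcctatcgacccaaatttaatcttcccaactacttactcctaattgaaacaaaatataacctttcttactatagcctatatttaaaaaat
ASFT: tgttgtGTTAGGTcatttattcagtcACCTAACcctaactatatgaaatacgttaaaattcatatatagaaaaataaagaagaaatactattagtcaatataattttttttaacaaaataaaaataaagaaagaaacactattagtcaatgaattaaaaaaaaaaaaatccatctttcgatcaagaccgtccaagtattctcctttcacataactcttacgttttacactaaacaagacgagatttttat

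The stretch before *CER1* held 1 ACGTG and 1 L1 box, and that before *KCS6* held 4 matches to ACGTG and 1 AC element. The stretch before *ASFT* held 2 AC elements, and that before *CYP86A1* held none of the 4 motifs. Over the 9 members, ACGTG was found before 3 (*CER1*, *KCS6* and *GPAT5*), against 23.1% of 26548 promoters of the same length. The AC element was found before 3 (*KCS6*, *CYP86B1* and *ASFT*), against 14.5% of promoters. The L1 box was found before 2 (*CER1* and *WSD1*), against 9.99%, and AGACAA before 1 (*CER3*), against 19.5%. These matches describe the letters only.

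Divided by transcript length and by depth, the 9 transcripts differed widely in abundance. *KCS6* was the most abundant in every library, at 113 to 144 fragments per kilobase per 1000000 fragments in mock and 114 to 205 under NaCl. *CYP86A1* (54.3 to 74.0 in mock) and *ASFT* (50.2 to 90.9) came next in mock and overlapped each other. *KCS2* (17.6 to 32.4), *CYP86B1* (16.6 to 26.7) and *CER1* (12.7 to 20.9) formed an overlapping middle range on the same scale. *GPAT5* (10.5 to 14.5) and *CER3* (7.20 to 11.2) were lower, also with overlap. *WSD1* was far below the rest, at 0.269 to 1.99 in mock and 0.964 to 1.41 under NaCl. Under NaCl *CER1* was at 22.5 to 43.2, above *KCS2* at 16.2 to 22.3 and *CYP86B1* at 13.8 to 17.5, and *CYP86A1* at 68.8 to 105 no longer overlapped *ASFT* at 28.0 to 55.1.

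**Figure D1:**
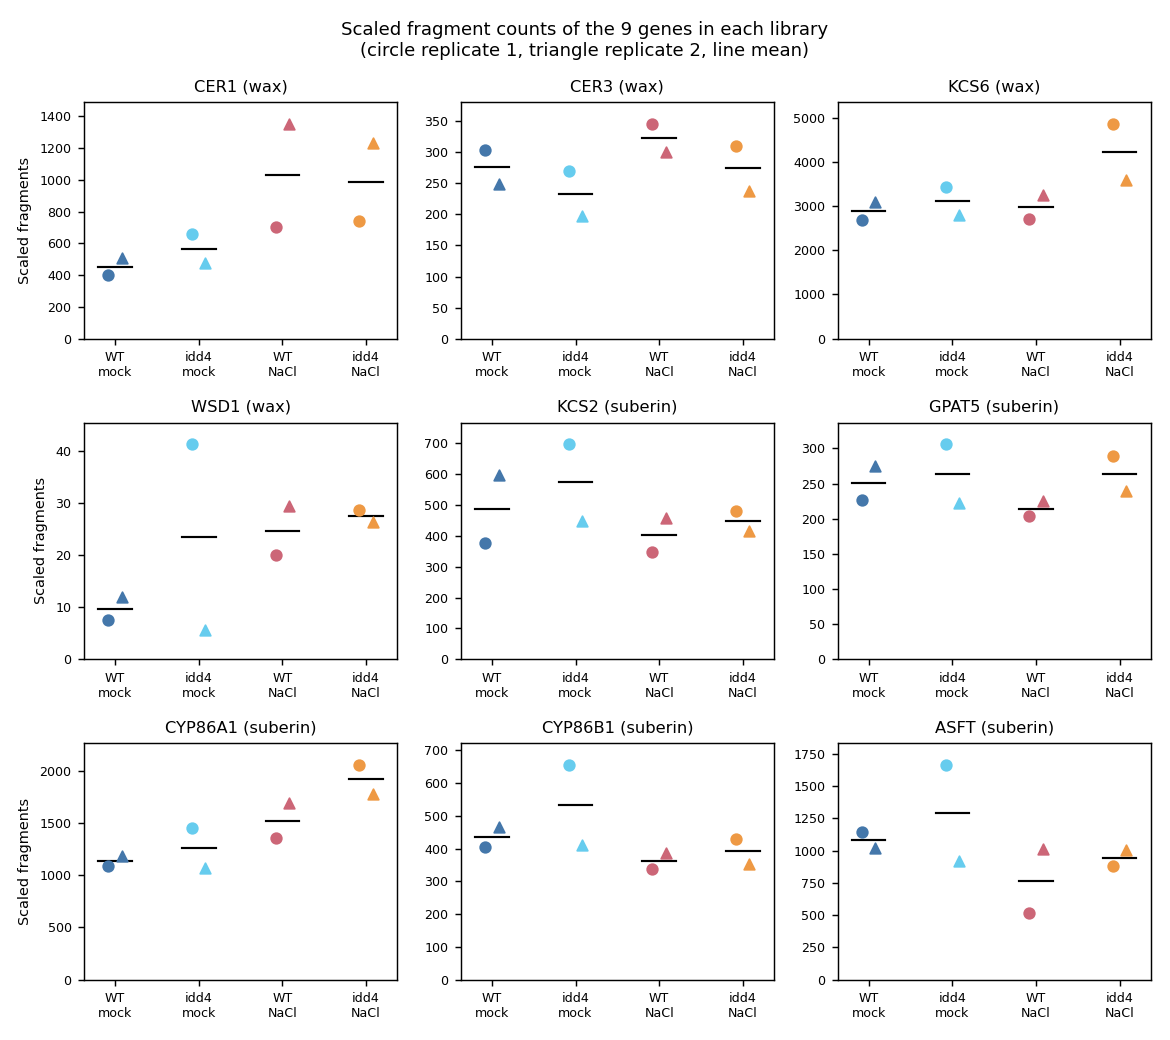
Scaled fragments of each of the 9 genes (vertical axis, starting at 0, a scale of its own per gene) in the 4 groups (horizontal axis). Circles are replicate 1, triangles replicate 2 and lines the mean of both. The 4 NaCl libraries of *CER1* sit between 705 and 1355, all above the 4 mock libraries at 398 to 656.

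The 4 wax genes all had a higher mean with salt than without it in each genotype, but none passed the test within a genotype. Of all genes tested, 71.5% in WT and 70.4% in *idd4* had a positive NaCl difference. In *CER1* (AT1G02205, chromosome 1, 418416 to 422579, 8 exons), whose product makes the alkanes of leaf wax together with CER3, WT mock had 398 and 507 scaled fragments and WT NaCl 705 and 1355. The libraries labelled *idd4* had 656 and 474 in mock and 741 and 1235 under NaCl. The NaCl libraries stood above the mock libraries in each genotype without overlap, although within each NaCl group the second library was far above the first. The log2 difference was 1.12 in WT (SE 0.346, 95% interval 0.338 to 1.90, limma adjusted p = 0.13) and 0.78 in *idd4* (SE 0.346, interval -0.00459 to 1.56, adjusted p = 0.24). Relative to the median gene these differences were 0.869 and 0.528.

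*CER3* (AT5G57800, chromosome 5, 23420184 to 23424117), the partner of CER1 in alkane formation, did not share this pattern. It had 304 and 249.7 scaled fragments in WT mock, 346 and 301 in WT NaCl, 271 and 197 in *idd4* mock and 310.3 and 238 in *idd4* NaCl. The groups overlapped, and the log2 differences of 0.23 in WT (interval -0.301 to 0.756, limma adjusted p = 0.60) and 0.24 in *idd4* (interval -0.293 to 0.765, adjusted p = 0.58) came to -0.0228 and -0.0133 relative to the median gene.

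*KCS6* (AT1G68530, chromosome 1, 25712414 to 25715024), the condensing enzyme of the wax elongase, had 2682 and 3088 scaled fragments in WT mock and 2714 and 3241 in WT NaCl. In the libraries labelled *idd4* it had 3429 and 2802 in mock and 4868 and 3599 under NaCl. The WT groups overlapped, whereas the *idd4* NaCl libraries stood above all other libraries. The log2 difference was 0.04 in WT (interval -0.446 to 0.532, limma adjusted p = 0.92) and 0.43 in *idd4* (interval -0.0555 to 0.922, adjusted p = 0.28).

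*WSD1* (AT5G37300, chromosome 5, 14767426 to 14770396), the wax ester synthase of the stem, was close to the limit of these libraries, with between 7 and 43 fragments in each. It had 7.49 and 11.9 scaled fragments in WT mock, then 20 and 29.3 in WT NaCl, 41.3 and 5.60 in *idd4* mock and 28.7 and 26.4 in *idd4* NaCl. The *idd4* mock libraries alone spanned the values of all other groups. Its log2 difference was 1.27 in WT (interval -0.452 to 2.99, limma adjusted p = 0.37) and 0.77 in *idd4* (interval -0.948 to 2.49, adjusted p = 0.58), and the latter became -0.57 without the second *idd4* mock library.

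Of the 5 suberin genes, *CYP86A1* stood apart from the rest. *CYP86A1* (AT5G58860, chromosome 5, 23765791 to 23768111), the fatty acid ω-hydroxylase of root suberin, had 1088 and 1179 scaled fragments in WT mock and 1353 and 1687 in WT NaCl. In the libraries labelled *idd4* it had 1454 and 1067 in mock and 2056 and 1779 under NaCl. The NaCl libraries were above the mock libraries of their genotype in both cases. NaCl minus mock was 0.42 on the log2 scale in WT (SE 0.204, interval -0.0463 to 0.877, limma adjusted p = 0.29) and 0.62 in *idd4* (SE 0.204, interval 0.156 to 1.08, adjusted p = 0.14). Relative to the median gene it was 0.165 and 0.369.

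The other suberin genes had lower means under NaCl in WT, where 28.5% of all genes tested had a negative difference. *ASFT* (AT5G41040, chromosome 5, 16431304 to 16433305), the feruloyl transferase that adds ferulate to suberin, had 1141 and 1018 scaled fragments in WT mock and 513 and 1009 in WT NaCl. In the libraries labelled *idd4* it had 1665 and 920.3 in mock and 877 and 1007 under NaCl. The WT groups were apart by a narrow gap and the *idd4* groups overlapped. NaCl minus mock was -0.58 on the log2 scale in WT (interval -1.36 to 0.194, limma adjusted p = 0.36), from -0.09 without the first WT NaCl library to -1.07 without the second, and -0.40 in *idd4* (interval -1.17 to 0.378, adjusted p = 0.53). Without the first *idd4* mock library the latter was 0.03.

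*CYP86B1* (AT5G23190, chromosome 5, 7803141 to 7805968), which hydroxylates the very-long-chain monomers of suberin, had 406 and 465 scaled fragments in WT mock, 338 and 385 in WT NaCl, 655 and 412 in *idd4* mock and 431 and 354 in *idd4* NaCl. The WT NaCl libraries were below both WT mock libraries, and the *idd4* groups overlapped. Its log2 difference was -0.26 in WT (interval -0.807 to 0.278, limma adjusted p = 0.55) and -0.41 in *idd4* (interval -0.954 to 0.131, adjusted p = 0.35). The latter was -0.08 without the first *idd4* mock library and -0.75 without the second.

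*GPAT5* (AT3G11430, chromosome 3, 3595694 to 3597952), the acyltransferase that joins suberin monomers to glycerol, had 227 and 276 scaled fragments in WT mock, 204 and 225 in WT NaCl, 306 and 222 in *idd4* mock and 289 and 239.7 in *idd4* NaCl. The WT groups were apart by a small margin and the *idd4* groups overlapped. On the log2 scale the difference was -0.22 in WT (interval -0.732 to 0.287, limma adjusted p = 0.59) and 0.01 in *idd4* (interval -0.497 to 0.522, adjusted p = 0.98).

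*KCS2* (AT1G04220, chromosome 1, 1119699 to 1122786), the elongase condensing enzyme that acts with KCS20 in suberin, had 378 and 598 scaled fragments in WT mock, 349 and 458 in WT NaCl, 697 and 449 in *idd4* mock and 481 and 417 in *idd4* NaCl. All 4 groups overlapped. On the log2 scale the difference was -0.25 in WT (interval -0.890 to 0.394, limma adjusted p = 0.64) and -0.32 in *idd4* (interval -0.965 to 0.32, adjusted p = 0.54), and that in WT was 0.08 without the second WT mock library. Its value is uncertain, since 54.9% of its stretches of a read's length also match AT1G04247, a gene annotated on the opposite strand of the same locus, and use of strand in the counting is not given in the sources used here. *KCS2* also overlaps AT1G04210 on the opposite strand, which has a value in the deposited data, whereas AT1G04247 has none. *ASFT* overlaps a gene on the opposite strand, AT5G41050. *KCS2* and *KCS20* share 1 of 1944 stretches of a read's length, and the members other than *KCS2*, *ASFT* included, share none with another gene.

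**Figure D2:**
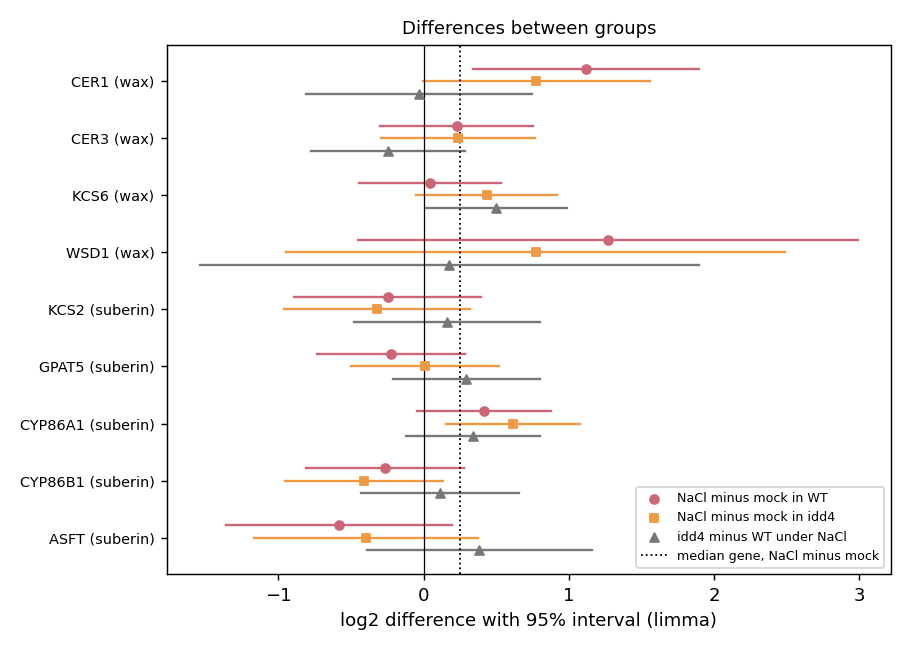
Log2 differences of the 9 genes on the log2(value + 1) scale (horizontal axis, points) with limma 95% intervals (lines), for NaCl minus mock in WT, NaCl minus mock in *idd4* and *idd4* minus WT under NaCl. The dotted line is the median gene under NaCl, at 0.25. The interval for *CER1* in WT starts at 0.338 and that for *CYP86A1* in *idd4* at 0.156, whereas most others cross 0.

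By count, 0 of the 9 members passed limma at an adjusted p under 0.05 for NaCl in WT, where 2.4% of tested genes did, and 0 of 9 in *idd4*, where 2.96% did. At an unadjusted p under 0.05 there was 1 member in WT (*CER1*) and 1 in *idd4* (*CYP86A1*), against 20.4% and 21.3% of tested genes. On the recovered fragments, edgeR called 0 of 9 in either genotype, where it called 1.85% of tested genes in WT and 2.33% in *idd4*, and DESeq2 called 0 of 9, where it called 5.34% and 5.72%. In WT the NaCl libraries lay entirely above mock for 3 members (*CER1*, *WSD1* and *CYP86A1*), where 42.5% of tested genes did so, and entirely below for 3 (*GPAT5*, *CYP86B1* and *ASFT*), where 11.9% did. In *idd4* 3 members lay above (*CER1*, *KCS6* and *CYP86A1*), against 40.2% of tested genes, and 0 below, against 12.6%. The NaCl comparisons in WT and in *idd4* share no library, but in the limma fit they share an estimate of the spread taken from all libraries.

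With the 4 NaCl libraries set against the 4 mock libraries over both genotypes, a comparison added after the values were seen, 2 of 9 members passed, both upward. The background here was 15.9% of tested genes (12.1% higher and 3.8% lower) by limma. By edgeR 1 member was called, *CYP86B1* as lower, against 11.9% of tested genes. DESeq2 called 3 members, *CER1* as higher and *ASFT* and *CYP86B1* as lower, against 12.7%. *CER1* rose by 0.95 on the log2 scale (SE 0.245, interval 0.396 to 1.5, limma adjusted p = 0.032), with 4 of 4 NaCl libraries above all mock libraries, which held for 21.7% of tested genes. No member had all NaCl libraries below all mock libraries, which held for 5.44%. *CYP86A1* rose by 0.52 (SE 0.145, interval 0.190 to 0.843, adjusted p = 0.042), with an overlap between the first *idd4* mock library and the first WT NaCl library. Relative to the median gene these were 0.697 and 0.265.

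Both calls depended on the scaling and on the libraries. For *CER1* the adjusted p was 0.12 with median-of-ratios factors, 0.099 after quantile normalization, 0.088 without the variance trend, 0.093 with edgeR and 0.024 with DESeq2. For *CYP86A1* the same settings gave 0.25, 0.12, 0.10, 0.26 and 0.39. The *CER1* call was lost without the first WT mock library (log2 difference 0.86, adjusted p = 0.098), the second WT mock (1.04, 0.073), the second *idd4* mock (0.83, 0.10), the second WT NaCl (0.71, 0.084) or the second *idd4* NaCl library (0.76, 0.069), by limma throughout. The *CYP86A1* call was lost without the first or second WT mock (adjusted p = 0.11 and 0.098), the second *idd4* mock (0.15), the first or second WT NaCl (0.057 and 0.12) or the first *idd4* NaCl library (0.10), again by limma. The remaining members had log2 differences of 1.02 (*WSD1*, limma adjusted p = 0.21), 0.24 (*KCS6*, 0.29), 0.23 (*CER3*, 0.34), -0.10 (*GPAT5*, 0.66), -0.29 (*KCS2*, 0.33), -0.34 (*CYP86B1*, 0.19) and -0.49 (*ASFT*, 0.18). *CYP86B1* would have been called lower with median-of-ratios factors (log2 difference -0.58, adjusted p = 0.040), quantile normalization (-0.56, 0.050), edgeR (-0.59, 0.040) or DESeq2 (-0.59, 0.027), and *ASFT* with DESeq2 (-0.70, 0.030).

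The wax minus suberin contrast of the 9 members was higher under NaCl than in mock. It is a difference of undivided levels, so its changes between libraries are described and not its distance from 0. The mean log2(value + 1) of the 4 wax genes minus that of the 5 suberin genes was -1.22 and -1.22 in WT mock against -0.36 and -0.38 in WT NaCl. It was -1.01 and -1.37 in *idd4* mock against -0.59 and -0.48 in *idd4* NaCl. The 4 NaCl libraries were above the 4 mock libraries, with no overlap. A factor common to a whole library falls out of this contrast apart from the pseudocount, so the shift of the median gene does not enter it. With *WSD1* left out, the contrast was 0.07 to 0.37 in mock and 0.70 to 0.98 under NaCl. With *CER1* left out, it was -1.78 to -1.25 in mock and -1.01 to -0.71 under NaCl, and with *CYP86A1* left out -1.12 to -0.80 and -0.17 to 0.04. The treatments remained apart when any other member was left out. The wider lists described below, which include the members, did not show the same gap. In WT the median NaCl minus mock difference was -0.203 for wax synthesis and -0.248 for suberin synthesis. In *idd4* these medians were -0.195 and 0.00643, with wax the lower. The contrast is a description of 9 chosen genes and carries no test.

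**Figure D3:**
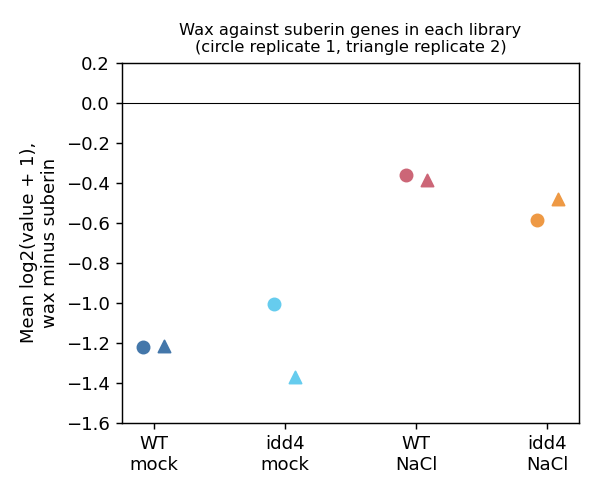
Mean log2(value + 1) of the 4 wax genes minus that of the 5 suberin genes (vertical axis, 0 marked by a line) in each library of the 4 groups, with circles for replicate 1 and triangles for replicate 2. The mock libraries lie between -1.37 and -1.01 and the NaCl libraries between -0.59 and -0.36.

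Between genotypes no member passed in either treatment. Without NaCl the differences of the libraries labelled *idd4* minus WT ran from -0.25 (*CER3*) to 0.67 (*WSD1*), with a median of 0.200 against -0.0355 over all genes tested, and the groups of all 9 members overlapped, where 9.05% of tested genes had both *idd4* libraries above WT and 15.9% below. Under NaCl they ran from -0.25 (*CER3*) to 0.50 (*KCS6*), with a median of 0.176 against -0.0476. In limma 0 of 9 members and 0% of tested genes passed in mock, under NaCl and in the interaction, each with an adjusted p of 1. At an unadjusted p under 0.05 there were 0, 1 and 0 members, against 1.26%, 2.44% and 0.93% of tested genes. Both edgeR and DESeq2 called 0 of the 9 in all 3 comparisons, against 0% of tested genes except for 0.0126% by DESeq2 in mock. Under NaCl *KCS6* (log2 difference 0.50, SE 0.216, interval 0.00817 to 0.986), *CYP86A1* (0.34, interval -0.122 to 0.802) and *GPAT5* (0.30, interval -0.214 to 0.805) had both *idd4* libraries above both WT libraries, where 9.32% of tested genes did so, and 0 had both below, against 18.1%. The interaction of genotype and NaCl, which asks whether the salt difference itself differed, was widest for *WSD1* (-0.50, interval -2.93 to 1.94) and *KCS6* (0.39, interval -0.301 to 1.08), so sizeable differences in response remained within the intervals. The mock and NaCl comparisons of genotype share no library, but they too share the estimate of the spread.

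Over the 8 libraries the suberin genes other than *CYP86A1* followed each other. Pearson's r of log2 values was 0.903 between *KCS2* and *CYP86B1*, 0.863 between *KCS2* and *GPAT5*, 0.784 between *CYP86B1* and *ASFT* and 0.648 between *GPAT5* and *ASFT*. *CYP86A1* had r between -0.0783 and 0.334 with these genes, but 0.859 with *KCS6*, 0.826 with *WSD1* and 0.788 with *CER1*. These values describe libraries that share treatment, depth and scaling. Among 18148 genes with a mean of at least 20, the patterns nearest to *KCS6* were those of *KCS3* (r = 0.974), a relative of the same condensing enzymes, and *YLS7* (0.966). *CYP86B1* was nearest to AT5G48590 (0.961) and *ABCG6* (0.951), a transporter of suberin monomers, and *KCS2* to *ABCG23* (0.951) and AT5G48590 (0.940). *CYP86A1* was nearest to *NTMC2T6.1* (0.990) and *GLR2.1* (0.989), *ASFT* to AT5G12950 (0.963) and AT4G14650 (0.946), and *GPAT5* to *HHP2* (0.952) and AT5G41920 (0.946). *CER1* was nearest to AT1G26370 and *PIL5* (both 0.988), *CER3* to AT5G04320 (0.994) and AT4G11790 (0.970), and *WSD1* to *NAC080* (0.948) and AT2G38380 (0.939).

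The wider wax pathway had mostly negative differences, unlike *CER1*. Of 16 listed wax synthesis genes, the 4 members included, 15 were tested. With NaCl in WT and *idd4* limma called 0, against 2.4% and 2.96% of all genes tested, and edgeR 0, against 1.85% and 2.33%. DESeq2 called 1 lower in each, *CER2* (adjusted p = 0.047 in WT and 0.016 in *idd4*), which is needed for elongation to the longest wax chains. Their median difference was -0.203 in WT and -0.195 in *idd4*, against 0.25 and 0.249 over all genes tested. Over both genotypes limma called 1 higher (*CER1*) and 1 lower (*CER2*, which fell by 0.74, adjusted p = 0.016), against 12.1% higher and 3.8% lower of all genes tested. By edgeR 0 were higher and 2 lower (*CER2* and the condensing enzyme *KCS1*), and by DESeq2 1 was higher (*CER1*) and 4 lower (*CER2*, *CER10*, *KCS1* and *KCS5*, which also serve the elongase). In either direction edgeR called 11.9% of all genes tested and DESeq2 12.7%. *CER2* had 553, 712, 708 and 684 scaled fragments in the mock libraries and 360.2, 442, 332 and 466 under NaCl, with no overlap, and its call was lost without the second WT mock, second *idd4* mock or first WT NaCl library (adjusted p up to 0.066). *CER1* and *CER2* thus had opposite directions over the same libraries.

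Of 4 wax export genes, *LTPG2*, a lipid transfer protein anchored at the cell surface, had 832 and 697 scaled fragments in WT mock, 446 and 451 in WT NaCl, 789 and 737 in *idd4* mock and 452 and 418 in *idd4* NaCl. Every NaCl library was below every mock library. It fell in *idd4* by 0.81 (SE 0.167, limma adjusted p = 0.040), a call that was lost without any 1 of the 8 libraries (adjusted p = 0.058 to 0.18), and the difference in WT was -0.76 (adjusted p = 0.051). In WT it was called lower by edgeR (0.024), DESeq2 (0.0011), and limma with median-of-ratios factors (0.017) or quantile normalization (0.023), and in *idd4* by edgeR (0.019) and DESeq2 (0.00053). The cutin genes, which build the polyester beneath the wax, had a negative difference for 10 of 13 in each genotype, with medians of -0.226 and -0.354, where 28.5% and 29.6% of all genes tested were negative. Within a genotype limma and edgeR called 0, and DESeq2 called *GPAT4* (adjusted p = 0.042) and *GPAT8* (0.048) lower in WT and *LTL1* (0.013), a lipase-like gene, lower in *idd4*. Of all genes tested, in WT and *idd4*, limma called 2.4% and 2.96%, edgeR 1.85% and 2.33% and DESeq2 5.34% and 5.72%. Over both genotypes 0 were called higher and 2 lower by limma, 4 lower by edgeR and 6 lower by DESeq2. Limma called 12.1% of all genes tested higher and 3.8% lower there. In either direction edgeR called 11.9% and DESeq2 12.7%. *GPAT4* and *GPAT8*, the acyltransferases of cutin, fell by 0.60 and 0.73 (limma adjusted p = 0.041 and 0.024). The *GPAT4* call held by limma only without the first WT mock library and the *GPAT8* call only without the second WT NaCl or second *idd4* NaCl library, with adjusted p up to 0.13 and 0.080 without others. *LTPG2* fell by 0.79 over both genotypes (adjusted p = 0.0043), at most 0.023 without any library.

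The suberin pathway held calls in both directions, and their balance depended on the tool. Of all genes tested, in WT and *idd4*, limma called 2.4% and 2.96%, edgeR 1.85% and 2.33% and DESeq2 5.34% and 5.72%. Over both genotypes limma called 12.1% higher and 3.8% lower, and in either direction edgeR called 11.9% and DESeq2 12.7%. Of 11 suberin synthesis genes limma called 1 with NaCl in WT, where it rose: *FAR1*, a reductase that makes the primary alcohols of suberin, had 122 and 132 scaled fragments in WT mock and 247 and 313 in WT NaCl, and in *idd4* 125 and 154 in mock and 265 and 206 under NaCl. The NaCl libraries were above the mock libraries in both genotypes. *FAR1* differed by 1.12 on the log2 scale in WT (SE 0.232, limma adjusted p = 0.044) and 0.75 in *idd4* (adjusted p = 0.12). With median-of-ratios factors, quantile normalization or no variance trend, limma no longer called *FAR1* in WT (adjusted p = 0.099, 0.11 and 0.11). The same held with no filter on low values (0.053) or with only the WT libraries (0.051). The WT call was lost without the first or second WT mock (adjusted p = 0.19 each), first or second *idd4* mock (0.061 and 0.063) and first or second WT NaCl library (0.094 and 0.20), as well as with edgeR (0.095) and with DESeq2 (0.078), which called *KCS20* lower in WT. Over both genotypes *FAR1* (0.94, limma adjusted p = 0.0079), *FACT* (0.64, 0.018) and *CYP86A1* rose, where *FACT* is the transferase that joins caffeate to fatty alcohols. *KCS20*, the partner of *KCS2*, fell by 0.59 (adjusted p = 0.025). These limma calls, 3 higher and 1 lower, became 1 higher (*FAR1*) and 3 lower with edgeR (*KCS20*, *CYP86B1* and *GPAT7*, a relative of *GPAT5*) and 1 higher and 4 lower with DESeq2, which added *ASFT*. The *FAR1* call held without each library (adjusted p at most 0.034). That of *FACT* was lost without the first WT mock, second *idd4* mock or second WT NaCl library (up to 0.071) and with edgeR (0.10) and DESeq2 (0.13), and that of *KCS20* without any library but the first WT mock or second *idd4* NaCl (up to 0.090). Of 5 suberin export genes *ABCG1* rose by 0.71 (limma adjusted p = 0.020) and *LTPG15* fell by 0.72 (adjusted p = 0.018) in the same comparison. By both edgeR and DESeq2, 0 of the 5 were higher and 3 lower: *LTPG15*, *ABCG6* (adjusted p = 0.026 and 0.0042) and *ABCG20* (0.011 and 0.0025), the latter pair being transporters of suberin monomers. Within a genotype limma called 0, while *LTPG15* was called lower in WT by edgeR (0.043) and DESeq2 (0.0021) and by limma with median-of-ratios factors (0.036) or quantile normalization (0.042). *ABCG1* was no longer called with edgeR (0.13) or DESeq2 (0.18), or by limma without the first WT mock, either *idd4* mock or the second WT NaCl library (up to 0.065). *LTPG15* was no longer called by limma without either WT mock, the first *idd4* mock, the first WT NaCl or the first *idd4* NaCl library (up to 0.062).

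**Figure D4:**
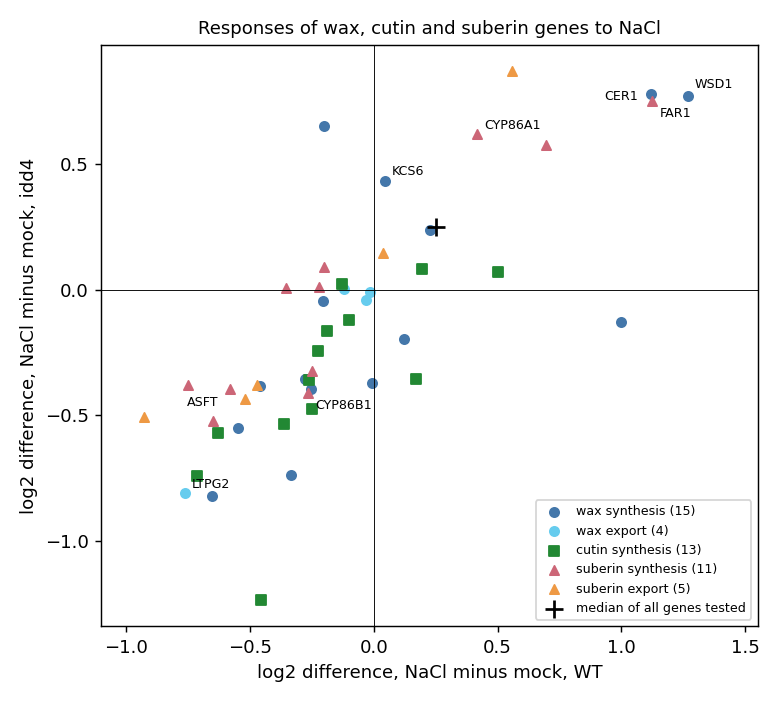
Log2 difference of NaCl minus mock in WT (horizontal axis) and in *idd4* (vertical axis) for each tested gene of 5 lists, with symbols by list and the number of genes in brackets. The cross marks the median of all genes tested, at 0.25 and 0.249. *CER1*, *WSD1* and *FAR1* lie at the upper right, at 1.12 and 0.78, 1.27 and 0.77, and 1.12 and 0.75, and *LTPG2* lies at the lower left, at -0.76 and -0.81.

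Of 9 regulators of suberin, limma called 0 within a genotype, against 2.4% and 2.96% of all genes tested. Over both genotypes it called 0 higher and 1 lower, against 12.1% and 3.8%. There edgeR and DESeq2 called 0 higher and 2 lower (*MYB39* and *NAC046*), against 11.9% and 12.7% in either direction. *MYB39*, an activator of suberin deposition in the endodermis, had 48.2 and 57.7 scaled fragments in WT mock, 7.0 and 19.5 in WT NaCl, 84.4 and 54.4 in *idd4* mock and 30.5 and 25.6 in *idd4* NaCl. All 4 NaCl libraries were below all 4 mock libraries. The log2 difference was -2.07 in WT (SE 0.482, limma adjusted p = 0.061, but 0.042 with median-of-ratios factors, 0.049 after quantile normalization and 0.0047 with DESeq2) and -1.25 in *idd4* (SE 0.482, adjusted p = 0.19), and over both genotypes it fell by 1.66 (adjusted p = 0.015, but 0.060 at most without the second WT mock or first *idd4* mock library). *MYB41*, another activator of suberin synthesis, had 15.9 to 20 scaled fragments in mock and 5.38 to 10.9 under NaCl, with log2 differences of -0.77 (limma adjusted p = 0.37) and -1.29 (0.16). Over both genotypes its difference was -1.03 (adjusted p = 0.062), and it was called lower with median-of-ratios factors (0.039), quantile normalization (0.034), a larger pseudocount (0.049) and no variance trend (0.029).

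Of 11 regulators of wax and cuticle, limma, edgeR and DESeq2 called 0 within a genotype. The shares of all genes tested were, in WT and *idd4*, 2.4% and 2.96% by limma, 1.85% and 2.33% by edgeR and 5.34% and 5.72% by DESeq2. *MYB96*, which activates wax genes in drought, had 297 and 324 scaled fragments in WT mock, 215 and 284 in WT NaCl, 226 and 289 in *idd4* mock and 287 and 216 in *idd4* NaCl, with log2 differences of -0.33 in WT and -0.04 in *idd4* (limma adjusted p = 0.45 and 0.93). *MYB94*, which acts alongside it, had differences of -0.11 and -0.07, and *DEWAX*, a repressor of wax genes that include *CER1*, had 0.08 and 0.04. None of *MYB96*, *MYB94* and *DEWAX* separated the treatments in both genotypes. *WIN1*, an activator of the cuticle, had at most 3.59 scaled fragments and is given no fold change. *SHN3*, of the same family as *WIN1*, had 6.42 to 10.9 scaled fragments in mock and 17.9 to 64.1 under NaCl and rose by 1.82 over both genotypes (limma adjusted p = 0.023), with adjusted p = 0.10 in WT and 0.19 in *idd4*. Its call was lost without any 1 mock library, the second WT NaCl or the second *idd4* NaCl library (adjusted p up to 0.074) and after quantile normalization (0.070). By limma, edgeR and DESeq2 it was the only 1 of the 11 to pass in that comparison. Of all genes tested limma called 12.1% higher and 3.8% lower there, and edgeR called 11.9% and DESeq2 12.7% in either direction.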

How the data were processed

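Total RNA of whole seedlings was sequenced as paired-end reads. Per the labels, the authors used FastQC, Trimmomatic 0.32, Cufflinks and the TAIR10 build. The deposited values are a signal per gene that the authors made as a fragment count times one factor per library: divided by that factor, at least 99.81% of values above 0 came within 0.05 of a whole number, which gave back the fragments. They are not FPKM, the unit that the tests had been designed for.

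In R 4.3.3, limma 3.58.1 was fitted to log2(value + 1) for 21820 genes, those whose mean reached 1 (a mean per group, variance trend, two-sided p adjusted over all genes by Benjamini-Hochberg, threshold 0.05). On the recovered fragments, edgeR 4.0.16 and DESeq2 1.42.0 were run as alternatives, beside other scalings, filters, pseudocounts, a replicate block and the fit without each library. The fits were tested on simulated data. The members and the 10 lists (97 genes) were chosen with earlier results of these data known. Genes named include all members, listed genes with a limma adjusted p under 0.05, 6 regulators (*MYB96*, *MYB94*, *DEWAX*, *WIN1*, *MYB41*, *MYB39*) and the 2 nearest patterns of each member. Of the 27207 gene identifiers, 26558 matched TAIR10.1, used for positions and sequences.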

Additional observations from a re-analysis of the deposited data

How the results depend on the processing

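Within each genotype and between genotypes the number of members called was 0 under every alternative run, libraries left out included. Over both genotypes 2 members were called, *CER1* and *CYP86A1*, both higher. Median-of-ratios factors, quantile normalization and edgeR each called 1 other member instead, *CYP86B1*, as lower. DESeq2 called 3, *CER1* as higher and *ASFT* and *CYP86B1* as lower. Without the variance trend 0 were called, and 0 to 3 when a library was left out. Under NaCl over all genes, the number called went from 524 to between 55 and 739 in WT, from 646 to between 71 and 814 in *idd4*, and from 3473 to between 1545 and 3683 over both genotypes when a library was left out. Other settings gave 84 to 1564, 104 to 1728 and 1958 to 5551, and for genotype in mock 0 to 3.

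No source says that equal replicate numbers share plants or a day, and deviations of same-numbered libraries correlated at 0.041 to 0.397 over 6 pairs of groups. With the replicate number as a block the calls over all genes became 1564, 1728 and 5551, in WT, in *idd4* and over both genotypes, and the members called stayed at 0, 0 and 2. Under the block, listed wax, cutin and suberin genes newly called in *idd4* were *CER2* (limma adjusted p = 0.026), *GPAT8* (0.048), *LTL1* and *ABCG1* (0.031). In WT they were *LTPG2* (0.022), *LTPG15* (0.038), *MYB39* (0.033) and *SHN3* (0.025). Over both genotypes they were *MYB41* (0.045), *KCS1*, *CYP86A8*, *LTL1*, *GPAT7*, *ABCG20* and *NAC046*. Markers newly called, all lower, were *COBL9* and *TIP2-3* in WT and *LHCA1* and *PSAD1* in *idd4*. Over both genotypes the markers were *CASP1*, *EXPA7*, *EXPA18*, *TIP2-3* and *PSBO1*.

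The sign turned for 3 members with other scalings, and the cause was not tested. For *CER3* the log2 difference became -0.01155 (median-of-ratios), -0.0145 (quantile) and -0.01165 (DESeq2) in WT; -0.005038, -0.006845, -0.01329 (edgeR) and -0.01369 (DESeq2) in *idd4*; and -0.008293, -0.01067, -0.005222 and -0.01267 over both genotypes. For *GPAT5* in *idd4* it became -0.2285, -0.2248, -0.2387 and -0.2388 in the same order. For *KCS6* it became -0.1965 (median-of-ratios), -0.182 (edgeR) and -0.1974 (DESeq2) in WT, and -0.002461 and -0.001069 (median-of-ratios and DESeq2) over both genotypes.

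With a library left out, the sign also turned for *ASFT* in *idd4* (-0.8241 to 0.03014), *GPAT5* in *idd4* (-0.2173 to 0.2422) and over both genotypes (-0.2197 to 0.01005), *KCS2* in WT (-0.5784 to 0.0825), *KCS6* in WT (-0.08474 to 0.1714) and *WSD1* in *idd4* (-0.5674 to 2.112). The NaCl minus mock difference of the wax and suberin means was 0.834 to 0.855 in WT and 0.474 to 0.836 in *idd4*. With 2 libraries per group, most intervals of the members included 0.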
